A study of Mus musculus with 4 samples.

Results

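The insulin-like growth factor (IGF) system was followed through 8 genes in mouse mammary gland organoids: the ligand gene Igf1, the receptor gene Igf1r and the binding protein genes Igfbp2, Igfbp3, Igfbp4, Igfbp5, Igfbp6 and Igfbp7. They were chosen by gene symbol, and each matched 1 of the 32285 genes in the count matrices. Igf1 and Igf1r are not binding proteins and were described beside them. IGF1 is a secreted growth factor that signals through IGF1R, a receptor tyrosine kinase on the cell surface. The IGF binding proteins are secreted, bind IGFs outside the cell and set how much ligand reaches the receptor, and proteases such as PAPP-A release the ligand again. In the mammary gland, stromal IGF1 is known to act on the epithelium, and IGFBP5 is best known from involution, the regression of the gland after weaning.

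Mammary fat pads freed of lymph nodes were the source of the organoids, from virgin mice of 8 to 9 weeks. The strain and genotype are not given in the sources used here. They were cultured under 4 conditions, which the labels name COL1, STIFF, MATR and SOFT. The names of the deposited matrices pair COL1 with collagen, STIFF with PEG7, MATR with Matrigel and SOFT with PEG2. Cells of COL1 and STIFF were pooled in 1 droplet channel and those of MATR and SOFT in another, each condition marked by an antibody hashtag, and 3′ ends of transcripts were counted as unique molecular identifiers (UMIs). The pairing of hashtag and condition was read from the matrix names, since the sample labels do not give it. An exchange of tags would turn the COL1 to STIFF or the MATR to SOFT values round. Each condition was 1 culture, so no test between conditions was possible, and all intervals are 95% intervals that cover counting error only. Comparisons across pools carry the channel as well as the condition, and these cannot be told apart.

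In all, 133608252 UMIs lay in 10615 barcodes for the COL1 and STIFF channel, and 131036333 UMIs in 8767 barcodes for the MATR and SOFT channel. Of these barcode sequences 22 occurred in both channels. After filtering, 9568 and 7945 barcodes remained. By hashtag, COL1 had 1563 cells (median 11353 UMIs), STIFF 2451 cells (16843 UMIs), MATR 2333 cells (14722 UMIs) and SOFT 1941 cells (15233 UMIs). A further 54.9% of the COL1 and STIFF barcodes and 42.7% of the MATR and SOFT barcodes carried neither tag above its cutoff. These entered the levels by pool but not those by condition. Cells fell into basal epithelium (led by Tagln, Acta2 and Krt5), luminal epithelium negative for hormone receptors (HR-negative, led by Saa1, Csn3 and Ltf), luminal epithelium positive for them (HR-positive), fibroblast-like cells (led by Col1a2, Col1a1 and Crabp1), macrophages or other immune cells (led by Lyz2, C1qa and Apoe) and 36 endothelial-like cells. The fibroblast-like cells also carried pericyte markers, and the lists did not separate the 2 cell types in the main clustering. Clusters with markers of several classes, of cycling cells or of very low depth stayed unnamed, and they held 3043 cells of the COL1 and STIFF pool and 1134 of the MATR and SOFT pool. Cells without a tag were a large part of some classes. The COL1 and STIFF pool had 1704 HR-negative cells (median 9543.5 UMIs). Of these, 162 were tagged COL1 (median 14500 UMIs) and 160 STIFF (25270.5 UMIs). A level by pool need therefore not lie between those of its 2 conditions. Levels are in CPM, the UMIs of a gene for every 1000000 UMIs of the summed cells, and were compared within a gene only. Higher and lower are written where CPM differed by at least 1.5-fold and reached 5 CPM in 1 of the groups.

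The 8 genes lie on 6 chromosomes (GRCm38.p6). Igf1 (ENSMUSG00000020053) spans chr10:87858265-87937047 and Igf1r (ENSMUSG00000005533) spans chr7:67952257-68233668. Igfbp2 (ENSMUSG00000039323) at chr1:72824480-72852474 and Igfbp5 (ENSMUSG00000026185) at chr1:72858065-72874865 are neighbours, lie on opposite strands with their 3′ ends facing each other, and are 5590 bp apart. Igfbp3 (ENSMUSG00000020427) at chr11:7206086-7215498 lies 3539 bp from Igfbp1, of which no UMI was counted in either pool. Igfbp4 (ENSMUSG00000017493) spans chr11:99040005-99052655, Igfbp6 (ENSMUSG00000023046) spans chr15:102144186-102149512 and Igfbp7 (ENSMUSG00000036256) spans chr5:77349240-77408045.

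The promoters of Igfbp2, Igfbp3 and Igfbp5 are shown because the basal levels of these 3 genes are set against each other in the results. Igfbp2 and Igfbp5 are also neighbours whose leading classes differ, although basal cells held both. All 8 members had a RefSeq promoter (GRCm38.p6, 250 bases before to 50 after the annotated start, 5′ to 3′ on the gene's strand). Capitals mark matches, on either strand, to the TATA box (letters TATAAA), the GC box (letters GGGCGG), the TEAD motif (letters CATTCC), the AP-1 motif (letters TGACTCA) and the E-box (letters CACGTG). No 2 matches overlap in the sequences shown.
Igfbp2, chr1:72824230-72824529, plus strand: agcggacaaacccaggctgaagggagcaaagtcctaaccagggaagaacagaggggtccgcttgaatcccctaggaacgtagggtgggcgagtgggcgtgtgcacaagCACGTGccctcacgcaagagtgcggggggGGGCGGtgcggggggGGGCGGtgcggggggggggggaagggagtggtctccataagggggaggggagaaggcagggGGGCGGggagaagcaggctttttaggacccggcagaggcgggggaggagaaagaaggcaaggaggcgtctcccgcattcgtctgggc
Igfbp5, chr1:72874816-72875115, minus strand: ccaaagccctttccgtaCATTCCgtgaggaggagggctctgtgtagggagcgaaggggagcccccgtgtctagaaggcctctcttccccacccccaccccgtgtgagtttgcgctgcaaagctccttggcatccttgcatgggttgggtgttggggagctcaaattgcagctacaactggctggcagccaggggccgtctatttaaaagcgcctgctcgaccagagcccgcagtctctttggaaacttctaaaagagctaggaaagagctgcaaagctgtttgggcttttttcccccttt
Igfbp3, chr11:7213874-7214173, minus strand: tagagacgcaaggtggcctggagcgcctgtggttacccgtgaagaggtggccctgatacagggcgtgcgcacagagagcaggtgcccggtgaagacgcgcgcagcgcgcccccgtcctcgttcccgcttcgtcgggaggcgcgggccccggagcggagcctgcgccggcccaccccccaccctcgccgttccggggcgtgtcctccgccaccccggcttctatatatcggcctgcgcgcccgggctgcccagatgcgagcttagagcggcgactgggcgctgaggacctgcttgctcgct
The Igfbp2 window held 3 GC boxes, at bases 138 to 143, 153 to 158 and 214 to 219 of the 300 bases, and 1 E-box at bases 109 to 114. The Igfbp5 window held 1 TEAD motif at bases 18 to 23, and the Igfbp3 window held none of the 5 motifs. The Igfbp3 window lies inside the gene span given above and not at its 5′ edge. Among 32851 promoters of the same length, 35.7% held the GC box, 14.7% the TEAD motif, 7.15% the E-box, 13.6% the TATA box and 5.20% the AP-1 motif. GC content was 67% for Igfbp2, 71.7% for Igfbp3 and 56.3% for Igfbp5, beside a median of 52.7% over all promoters. Counts of 3′ ends carry no information on which start site was used.

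Each gene had its own pattern of source cells. Igf1 was led by macrophages, Igfbp2 by basal cells, Igfbp5 by HR-negative luminal cells, and Igfbp6 and Igfbp7 by fibroblasts in all 4 conditions, among the 5 classes with enough cells. The lead of Igfbp5 was narrow in STIFF, with a ratio of 1.10 (1.08 to 1.12) for HR-negative over basal cells. Without the cells of highest doublet score, STIFF basal cells held more Igfbp5 (6412 CPM) than STIFF HR-negative cells (5943 CPM). The leading class of Igf1r, Igfbp3 and Igfbp4 changed between conditions, but where it changed the leading class was close to the next, with ratios of 1.22 (0.98 to 1.53) for Igf1r in COL1 basal over HR-negative cells, 1.10 (0.92 to 1.32) for Igfbp3 in COL1 fibroblasts over basal cells and 1.01 (0.78 to 1.31) for Igfbp4 in SOFT basal cells over fibroblasts. HR-positive luminal cells, the most numerous class, held little of any member except Igfbp5 and Igfbp7, and the levels of these 2 there were far below those of the leading classes.

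**Figure D1:**
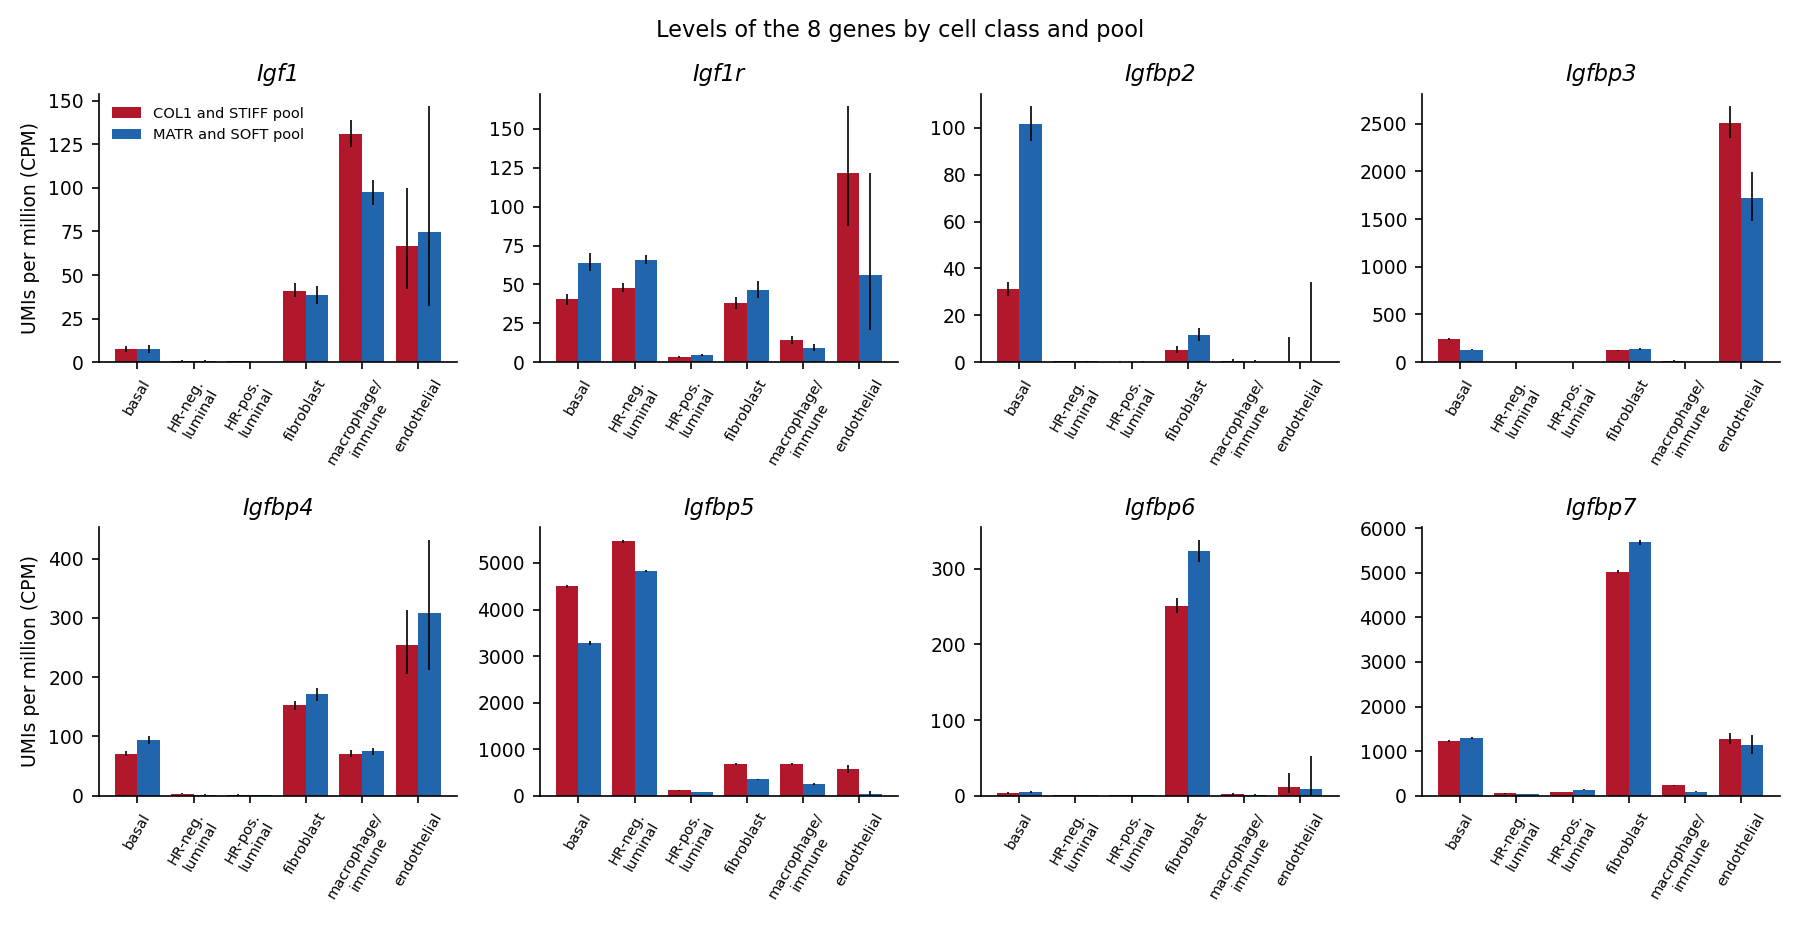
CPM of each of the 8 genes (1 panel a gene, vertical axis in CPM) by cell class, with the COL1 and STIFF pool in red on the left of each pair and the MATR and SOFT pool in blue. Bars are CPM and error bars are 95% Poisson intervals, which cover counting error only. Igfbp2 stands out in basal cells, Igfbp6 in fibroblasts and Igfbp3 in the 36 endothelial-like cells.

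Igf1, the ligand, was a stromal transcript. Macrophages held 131.1 CPM (123.6 to 138.9) in the COL1 and STIFF pool and 97.4 CPM (90.4 to 104.8) in the MATR and SOFT pool, and fibroblasts held 41.0 and 38.4 CPM. Endothelial-like cells held 66.6 CPM (42.2 to 100.0, 26 cells) and 74.5 CPM (32.2 to 146.9, 10 cells). The epithelium held little, with 7.5 and 7.4 CPM in basal cells and at most 0.8 CPM in either luminal class. Macrophages gave 56.5% and 61.7% of all Igf1 UMIs of the pools. An Igf1 UMI was found in 61.0% and 52.6% of macrophages (27.6% and 22.0% after thinning to 3000 UMIs), against at most 1.0% of HR-negative cells as background, at median depths of 14820 and 15489 UMIs in macrophages and 9543.5 and 12012 UMIs in HR-negative cells. Igf2, the other IGF ligand, reached at most 0.1 CPM in any class.

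By condition, macrophage Igf1 was 103.2 CPM in COL1 (150 cells), 144.0 CPM in STIFF (253 cells), 134.9 CPM in MATR (157 cells) and 76.3 CPM in SOFT (256 cells). The lowest level was that of SOFT and the highest that of STIFF. Igf1 was 1.77-fold higher in MATR than in SOFT macrophages (1.52 to 2.05) and 1.89-fold higher in STIFF than in SOFT macrophages (1.67 to 2.14). The ratio of COL1 over STIFF was 0.72 (0.62 to 0.83), which did not reach 1.5-fold. The share of macrophages with an Igf1 UMI after thinning was 21.9% for COL1, 31.0% for STIFF, 32.7% for MATR and 15.7% for SOFT, again lowest for SOFT. The levels without the cells of highest doublet score were 121.6 CPM in COL1, 167.9 CPM in STIFF, 162.2 CPM in MATR and 84.8 CPM in SOFT. Fibroblast Igf1 was 41.3 CPM in COL1, 48.4 CPM in STIFF, 42.6 CPM in MATR and 35.4 CPM in SOFT, and no ratio among these passed 1.5-fold. 

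Igf1r, the receptor, was found in basal and HR-negative luminal cells and much less in HR-positive luminal cells. Basal cells held 40.4 CPM (37.0 to 44.0) in the COL1 and STIFF pool and 64.0 CPM (58.4 to 70.1) in the MATR and SOFT pool. HR-negative cells held 47.8 and 65.8 CPM, fibroblasts 38.2 and 46.3 CPM, and macrophages 14.4 and 9.3 CPM. HR-positive cells held 3.4 and 4.8 CPM. The 36 endothelial-like cells held 121.7 CPM (87.7 to 164.5) and 55.9 CPM (20.5 to 121.7). Of the Igf1r UMIs, unnamed clusters gave 33.0% and 26.2% by pool, HR-negative cells 32.0% and 47.9%, and basal cells 15.7% and 11.8%.

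Within HR-negative cells Igf1r was 53.0 CPM in COL1, 55.7 CPM in STIFF, 64.2 CPM in MATR and 91.8 CPM in SOFT. It was lower in STIFF than in SOFT, with a ratio of 0.61 (1.65-fold, 1.42 to 1.92), and the MATR over SOFT ratio was 0.70 (0.62 to 0.79). After thinning, an Igf1r UMI was found in 11.3% of COL1, 9.43% of STIFF, 17.0% of MATR and 28.2% of SOFT HR-negative cells, so the SOFT cells were highest on both measures. Basal Igf1r was 64.8 CPM in COL1, 40.5 CPM in STIFF, 55.6 CPM in MATR and 54.5 CPM in SOFT, with a ratio of 1.60 for COL1 over STIFF (1.27 to 2.02). That ratio was 1.48 without the cells of highest doublet score and 1.38 to 1.48 under the 3 other clusterings, so the call ended in each of these. Basal Igf1r was lower in STIFF than in SOFT only under some alternatives. The ratio was 0.49 with tags called by each tag's excess over its own background and 0.65 without the cells of highest doublet score. It was 0.61 when clustering used all variable genes and 0.60 at Leiden resolution 1.0. Among the other receptor genes, Igf2r, which takes up IGF2 for degradation, led in fibroblasts (42.3 and 43.1 CPM by pool), and the insulin receptor gene Insr led in HR-negative cells (22.0 and 21.5 CPM).

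Igfbp2 was a basal transcript of few cells. Basal cells held 31.3 CPM (28.3 to 34.4) in the COL1 and STIFF pool and 101.7 CPM (94.5 to 109.2) in the MATR and SOFT pool, and gave 72.4% and 81.3% of its UMIs. Fibroblasts held 5.2 and 11.7 CPM, and luminal cells and macrophages at most 0.5 CPM. No Igfbp2 UMI was counted in endothelial-like cells, which allows up to 10.7 and 34.4 CPM.

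By condition, basal Igfbp2 was 60.02 CPM in COL1 (151 UMIs in 207 cells, 50.8 to 70.4), 24.2 CPM in STIFF (85 UMIs in 173 cells, 19.3 to 29.9), 157.0 CPM in MATR (418 UMIs in 163 cells, 142.3 to 172.8) and 69.6 CPM in SOFT (78 UMIs in 67 cells, 55.1 to 86.9). STIFF was lowest and MATR highest, and the COL1 and SOFT intervals overlapped. Igfbp2 was 2.48-fold higher in COL1 than in STIFF basal cells (1.89 to 3.27) and 2.25-fold higher in MATR than in SOFT basal cells (1.77 to 2.91). It was 2.88-fold lower in STIFF than in SOFT (2.09 to 3.96) and 2.62-fold lower in COL1 than in MATR (2.17 to 3.17). After thinning, an Igfbp2 UMI was found in 11.1% of COL1, 5.88% of STIFF, 21.5% of MATR and 12.3% of SOFT basal cells, and in no luminal cell of any condition. Before thinning these shares were 21.7%, 15.6%, 36.8% and 29.9% at median depths of 8577, 17852, 11784 and 13157 UMIs, and at most 1.23% in luminal classes. The tenth of basal cells with most Igfbp2 held between 73.9% and 88.2% of its UMIs in each condition. The largest basal sub-cluster alone gave 67.03 CPM in COL1, 32.2 CPM in STIFF, 205.4 CPM in MATR and 90.2 CPM in SOFT, the same order as the whole class.

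**Figure D2:**
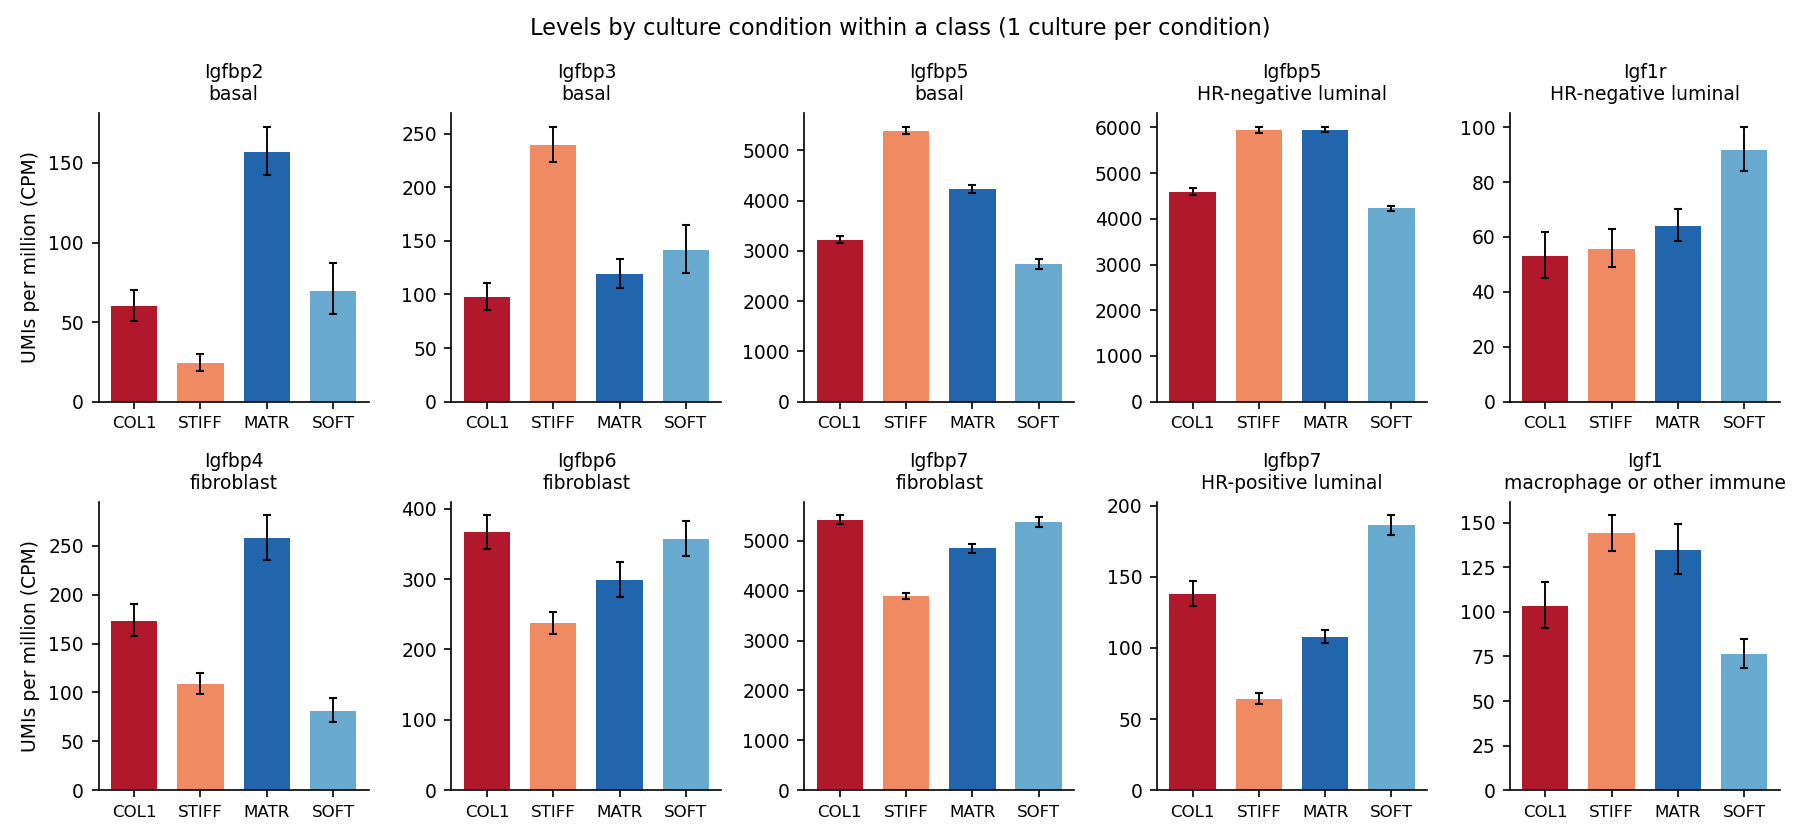
CPM (vertical axis) of the 8 genes in main source classes, and of Igfbp7 in HR-positive luminal cells as well. Each of the 10 panels is 1 pair of gene and class, with COL1, STIFF, MATR and SOFT from left to right. Bars are CPM of 1 culture and error bars are 95% Poisson intervals. In basal cells Igfbp2 was lowest in STIFF (24.2 CPM), while Igfbp3 and Igfbp5 were highest there (239.6 and 5395 CPM).

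Igfbp3 encodes the main carrier of IGFs in blood. It was densest in the few endothelial-like cells, at 2509 CPM (2345 to 2682, 26 cells) in the COL1 and STIFF pool and 1724 CPM (1484 to 1991, 10 cells) in the MATR and SOFT pool, and every one of these cells had a UMI. Basal cells held 242.6 and 131.2 CPM, fibroblasts 124.7 and 141.9 CPM, and luminal classes at most 3.3 CPM. Basal cells gave the largest part of its UMIs, 50.5% and 41.0% by pool, fibroblasts 19.9% and 36.1%, and endothelial-like cells 13.7% and 7.87%.

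Basal Igfbp3 ran opposite to Igfbp2 between COL1 and STIFF. It was 97.4 CPM in COL1, 239.6 CPM in STIFF, 119.1 CPM in MATR and 141.1 CPM in SOFT, highest in STIFF. It was 2.46-fold lower in COL1 than in STIFF (2.13 to 2.85) and 1.70-fold higher in STIFF than in SOFT (1.43 to 2.03). The MATR over SOFT ratio was 0.84 (0.70 to 1.03). It was 0.63 at Leiden resolution 1.0 and 0.60 when clustering used all variable genes, so MATR was lower than SOFT under these 2. In the largest basal sub-cluster the levels were 109.0 CPM in COL1, 300.9 CPM in STIFF, 123.8 CPM in MATR and 196.0 CPM in SOFT. The 6 basal markers other than contractile genes (Krt5, Krt14, Krt17, Oxtr, Trp63 and Lgr6) differed as well. Their summed levels were 2201 CPM in COL1, 3138 CPM in STIFF, 2142 CPM in MATR and 2594 CPM in SOFT basal cells. Per UMI of the basal keratin gene Krt14, Igfbp3 had 0.0935 UMIs for COL1, 0.157 for STIFF, 0.129 for MATR and 0.104 for SOFT, again highest in STIFF. After thinning, an Igfbp3 UMI was found in 19.1% of COL1, 38.2% of STIFF, 23.9% of MATR and 20% of SOFT basal cells.

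In fibroblasts Igfbp3 was 107.4 CPM in COL1, 118.2 CPM in STIFF, 72.4 CPM in MATR and 75.3 CPM in SOFT. The STIFF over SOFT ratio there was 1.57 (1.31 to 1.89), but under the relative tag rule, which calls tags by each tag's excess over its own background, the levels were 136.6 CPM in STIFF and 189.1 CPM in SOFT and the direction turned. It did not pass 1.5-fold without the cells of highest doublet score (ratio 1.35) or at Leiden resolution 1.0 (1.18). The levels in MATR and SOFT both lay below the fibroblast level of their pool, 141.9 CPM, which also counts untagged cells. That pool level rests on 849 UMIs, against 141 in MATR and 164 in SOFT. Endothelial-like cells by condition were 15, 6, 4 and 1, too few to compare.

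Igfbp5 was an epithelial transcript. HR-negative luminal cells held 5467 CPM in the COL1 and STIFF pool and 4834 CPM in the MATR and SOFT pool, and basal cells held 4495 and 3271 CPM. HR-negative cells gave 41.6% and 58.8% of its UMIs by pool, basal cells 19.9% and 10.1%, and unnamed clusters 33.0% and 28.0%. HR-positive cells held 111.8 and 82.8 CPM. Fibroblasts held 680.3 and 353.2 CPM and macrophages 683.0 and 250.8 CPM. Beside these stand the milk protein transcripts of HR-negative cells: Igfbp5 had 0.49 and 0.63 UMIs per UMI of Csn3 in HR-negative cells by pool, 0.43 and 0.69 in HR-positive cells, 0.61 and 0.67 in macrophages and 0.78 and 0.94 in fibroblasts, but 6.07 and 7.56 in basal cells. Fibroblast Igfbp5 was 342.4 CPM in COL1, 799.2 CPM in STIFF, 368.0 CPM in MATR and 501.6 CPM in SOFT, and Csn3 was highest in STIFF fibroblasts too. The part of free or luminal RNA in the Igfbp5 of other classes was not tested.

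By condition, HR-negative Igfbp5 was 4592 CPM in COL1, 5943 CPM in STIFF, 5952 CPM in MATR and 4232 CPM in SOFT, and no ratio passed 1.5-fold. Basal Igfbp5 differed more, at 3224 CPM in COL1, 5395 CPM in STIFF, 4239 CPM in MATR and 2736 CPM in SOFT. It was 1.67-fold lower in COL1 than in STIFF (1.63 to 1.72), 1.55-fold higher in MATR than in SOFT (1.49 to 1.61) and 1.97-fold higher in STIFF than in SOFT (1.90 to 2.05). The 12 HR-negative markers summed to 8551 CPM in COL1, 8106 CPM in STIFF, 8079 CPM in MATR and 6262 CPM in SOFT basal cells (all 12 detected in STIFF, Csn2 at 0 in COL1 and SOFT, Lalba at 0 in SOFT, Aldh1a3 at 0 in MATR). The 12 HR-positive markers summed to 953.2 CPM in COL1, 1754 CPM in STIFF, 1231 CPM in MATR and 1801 CPM in SOFT basal cells (Tnfsf11 at 0 in all but MATR), and the 5 pan-luminal markers to 2912, 4737, 4177 and 4541 CPM. A sub-cluster with basal and HR-positive markers together (median doublet score 0.248) made up 5.80% of COL1, 19.1% of STIFF, 12.3% of MATR and 23.9% of SOFT basal cells. Without the cells of highest doublet score, basal Igfbp5 was 3029 CPM in COL1, 6412 CPM in STIFF, 4696 CPM in MATR and 3142 CPM in SOFT. The COL1 to STIFF difference was thus larger without these cells, while the ratio of MATR over SOFT was 1.49 and no longer passed. The largest basal sub-cluster held 3089 CPM in COL1, 6497 CPM in STIFF, 4835 CPM in MATR and 3325 CPM in SOFT, with a MATR over SOFT ratio of 1.45.

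Igfbp4, whose product is a substrate of PAPP-A, was spread over the stroma and the basal layer. Fibroblasts held 152.7 CPM in the COL1 and STIFF pool and 170.8 CPM in the MATR and SOFT pool. Basal cells held 71.0 and 93.6 CPM, macrophages 71.0 and 74.6 CPM, endothelial-like cells 255.0 CPM (204.5 to 314.1) and 307.5 CPM (211.6 to 431.8), and luminal classes at most 3.0 CPM.

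Fibroblast Igfbp4 was 173.1 CPM in COL1, 108.6 CPM in STIFF, 257.6 CPM in MATR and 81.3 CPM in SOFT. It was highest in MATR, and COL1 lay between MATR and STIFF. The level was 3.17-fold higher in MATR than in SOFT (2.66 to 3.78) and 1.59-fold higher in COL1 than in STIFF (1.39 to 1.83). Under the relative tag rule the levels were 165.5 CPM in COL1, 147.3 CPM in STIFF, 275.6 CPM in MATR and 113.7 CPM in SOFT, so the COL1 to STIFF difference did not pass 1.5-fold there. Nor did it pass without the cells of highest doublet score, at 172.7 CPM in COL1 and 121.2 CPM in STIFF (ratio 1.43). Basal Igfbp4 was 94.6 CPM in COL1, 50.7 CPM in STIFF, 70.6 CPM in MATR and 82.1 CPM in SOFT, and was 1.87-fold higher in COL1 than in STIFF (1.53 to 2.28). In macrophages it was 87.3 CPM in COL1, 65.9 CPM in STIFF, 108.8 CPM in MATR and 55.7 CPM in SOFT, 1.95-fold higher in MATR than in SOFT (1.65 to 2.32).

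Igfbp6, whose product prefers IGF2 over IGF1, was found almost only in fibroblasts. Fibroblasts held 250.7 CPM (241.0 to 260.6) in the COL1 and STIFF pool and 323.5 CPM (309.2 to 338.2) in the MATR and SOFT pool, and no other class passed 11.6 CPM. By condition they held 366.4 CPM in COL1, 237.1 CPM in STIFF, 298.7 CPM in MATR and 356.9 CPM in SOFT. The level was 1.55-fold higher in COL1 than in STIFF (1.41 to 1.70) and 1.51-fold lower in STIFF than in SOFT (1.37 to 1.66), with STIFF lowest. Without the cells of highest doublet score the levels were 379.4 CPM in COL1 and 273.6 CPM in STIFF, a ratio of 1.39, which did not pass. The STIFF to SOFT difference was just under 1.5-fold by the margin tag rule, which asks for 1 tag well above the other, and 1.39-fold lower in STIFF at Leiden resolution 1.0.

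Igfbp7, a secreted relative with weak affinity for IGFs, was led by fibroblasts and was also found in basal and endothelial-like cells. Fibroblasts held 5029 CPM in the COL1 and STIFF pool and 5680 CPM in the MATR and SOFT pool, basal cells 1231 and 1299 CPM, and endothelial-like cells 1278 and 1137 CPM. Macrophages held 231.7 and 92.1 CPM, HR-positive cells 87.8 and 135.4 CPM and HR-negative cells 50.2 and 40.6 CPM. In fibroblasts it was 5423 CPM in COL1, 3888 CPM in STIFF, 4847 CPM in MATR and 5379 CPM in SOFT, and in basal cells 1278, 1073, 1331 and 1207 CPM. No ratio in either class passed 1.5-fold.

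HR-positive cells differed more in Igfbp7, with 138.1 CPM in COL1, 64.4 CPM in STIFF, 107.9 CPM in MATR and 186.4 CPM in SOFT. It was 2.15-fold higher in COL1 than in STIFF (1.96 to 2.34), 1.73-fold lower in MATR than in SOFT (just under 1.5-fold by the relative tag rule) and 2.89-fold lower in STIFF than in SOFT. Different clusters made up this class in different conditions. Of its 3 main clusters, cluster 6 held 290, 496, 430 and 618 cells, cluster 7 held 108, 562, 451 and 83, and cluster 8 held 139, 37, 382 and 337 in COL1, STIFF, MATR and SOFT. Within cluster 6 Igfbp7 was 172.6 CPM in COL1, 104.4 CPM in STIFF, 162.9 CPM in MATR and 248.7 CPM in SOFT, so STIFF was lowest and SOFT highest there too. The fibroblast gene Col1a1 stands beside this: Igfbp7 had 1.12 and 1.02 UMIs per Col1a1 UMI in fibroblasts by pool, 5.88 and 11.7 in HR-positive cells, and 73.2 and 103.6 in basal cells. The 6 basal markers other than contractile genes summed to 43.5 CPM in COL1, 48.5 CPM in STIFF, 22.1 CPM in MATR and 68.4 CPM in SOFT HR-positive cells. This sum was lowest in MATR and highest in SOFT. The part of other cells' RNA in the Igfbp7 of HR-positive cells was not tested. In HR-negative cells Igfbp7 was 55.2 CPM in COL1, 49.2 CPM in STIFF, 26.1 CPM in MATR and 66.5 CPM in SOFT. It was lowest in MATR, 2.55-fold lower than in SOFT, and 2.11-fold higher in COL1 than in MATR (1.71 to 2.61).

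**Figure D3:**
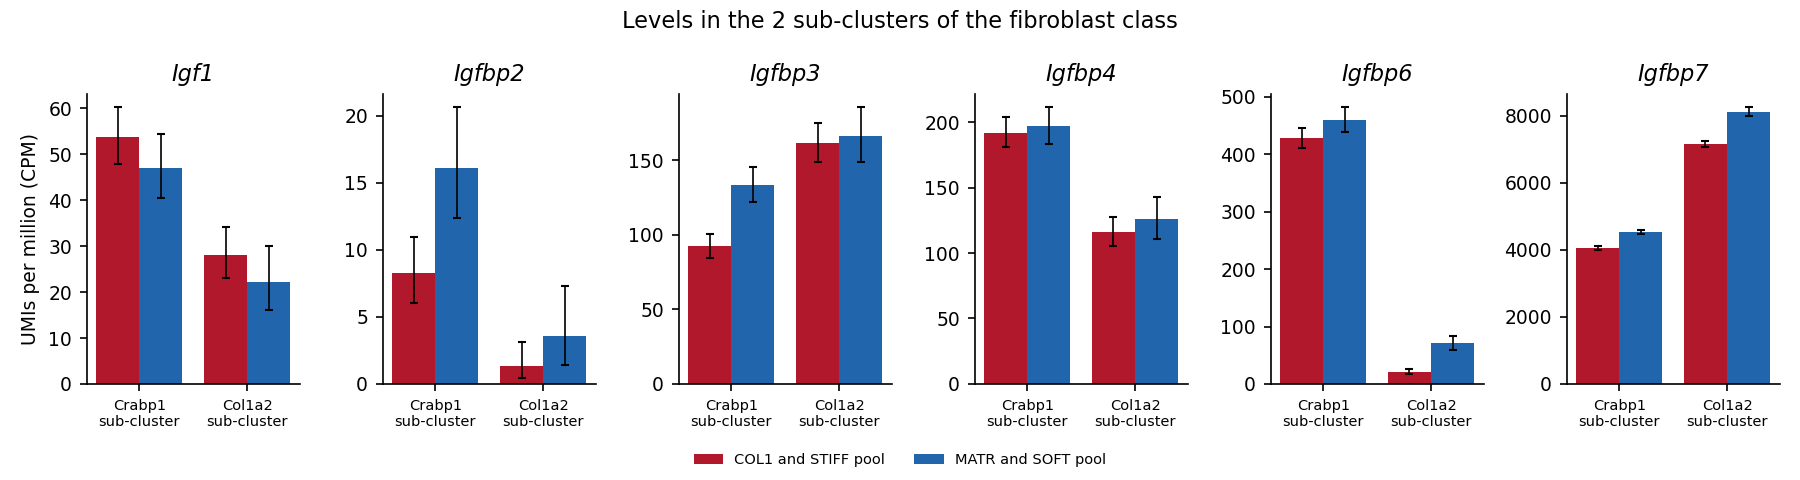
CPM (vertical axis) of 6 members in the fibroblast sub-cluster led by Crabp1 and in the one led by Col1a2, in the COL1 and STIFF pool and in the MATR and SOFT pool, with 95% Poisson intervals as error bars. Igfbp6 sits mainly in the Crabp1 sub-cluster (428.4 and 459.7 CPM), and Igfbp7 is higher in the Col1a2 sub-cluster (7149 and 8124 CPM).

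The fibroblast class split into 2 parts with different members. The sub-cluster led by Crabp1 (286 and 182 cells by pool) held Igfbp6 at 428.4 and 459.7 CPM, and the one led by Col1a2, Col3a1 and Col1a1 (258 and 140 cells) held it at 21.2 and 71.0 CPM. Igfbp7 was lower in the Crabp1 sub-cluster, at 4056 and 4533 CPM, against 7149 and 8124 CPM in the Col1a2 sub-cluster. Igfbp4 was 192.0 and 196.8 CPM in the Crabp1 sub-cluster and 116.1 and 126.3 CPM in the Col1a2 sub-cluster, and Igf1 was 53.9 and 47.1 CPM against 28.2 and 22.3 CPM. These differences describe clusters that were made from the same cells, although the IGF genes were left out of the clustering. The Col1a2 sub-cluster carried fibroblast, pericyte and endothelial markers at this resolution and was given no cell type name. The mean log2 ratio over the other clusters was 3.59 for its pericyte markers (7 genes) and 2.64 for its endothelial markers (3 genes). The Crabp1 sub-cluster did not carry the pericyte list. Whether the differences between the sub-clusters are those of fibroblasts and pericytes was not tested. The Crabp1 sub-cluster made up 53.7% of COL1, 63.1% of STIFF, 52.4% of MATR and 69.5% of SOFT fibroblasts. Within it Igfbp6 was 560.7 CPM in COL1, 348.0 CPM in STIFF, 419.3 CPM in MATR and 484.5 CPM in SOFT, so STIFF was lowest there as well.

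By pool, basal cells with an Igfbp2 UMI held more of the contractile genes Actg2, Cnn1 and Acta2, though within COL1 only Cnn1 of these 3 passed 1.5-fold. With Igfbp2 there were 144 basal cells in the COL1 and STIFF pool and 164 in the MATR and SOFT pool (median 10297.5 and 9140.5 UMIs), and without it 1039 and 526 (8482 and 7979.5 UMIs). Actg2 was 298.5 and 297.0 CPM in cells with Igfbp2, against 130.9 and 124.9 CPM in cells without it. Cnn1 was 461.5 and 538.6 CPM against 244.0 and 276.0 CPM, and Acta2 was 3679 and 4328 CPM against 2269 and 1935 CPM. Igfbp3 ran the other way, at 164.9 and 79.6 CPM in cells with Igfbp2 against 257.8 and 150.9 CPM in cells without it. So did Lgr5, a stem cell marker, at 43.3 and 35.6 CPM against 84.4 and 61.5 CPM, and Hpgd, a prostaglandin-degrading enzyme, at 90.8 and 40.5 CPM against 233.0 and 112.9 CPM. The genes named here other than members were chosen after their values were seen, and cells of 1 pool are not replicates. Igfbp5 was 4295 and 3653 CPM in cells with Igfbp2 and 4534 and 3126 CPM in cells without it. The share of cells with an Igfbp3 UMI was 51.4% and 23.8% in cells with Igfbp2, against 52.9% and 32.9% in cells without it.

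The 2 conditions of a pool differed in basal Igfbp2 and Igfbp3, so the split was repeated within each condition, with 45 Igfbp2 cells for COL1, 27 for STIFF, 60 for MATR and 20 for SOFT. Igfbp3 was 43.6 CPM in cells with Igfbp2 against 120.6 CPM in cells without it in COL1, and 68.6 CPM against 151.9 CPM in MATR. The difference did not reach 1.5-fold in STIFF (200.8 against 248.4 CPM) or in SOFT (128.5 against 146.4 CPM). Cnn1 was higher in cells with Igfbp2 in all 4 conditions, at 406.6 against 262.8 CPM in COL1, 518.1 against 240.4 CPM in STIFF, 450.5 against 284.0 CPM in MATR and 442.2 against 213.9 CPM in SOFT. Actg2 and Acta2 were higher in STIFF, MATR and SOFT, but in COL1 Actg2 was 125.4 against 133.7 CPM and Acta2 was 2344 against 2220 CPM. Lgr5 and Hpgd were lower in cells with Igfbp2 in COL1, MATR and SOFT. In STIFF neither reached 1.5-fold, with Lgr5 at 50.6 against 68.2 CPM and Hpgd at 154.8 against 197.0 CPM. The Lgr5 intervals of cells with and without Igfbp2 overlapped in STIFF, MATR and SOFT.

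**Figure D4:**
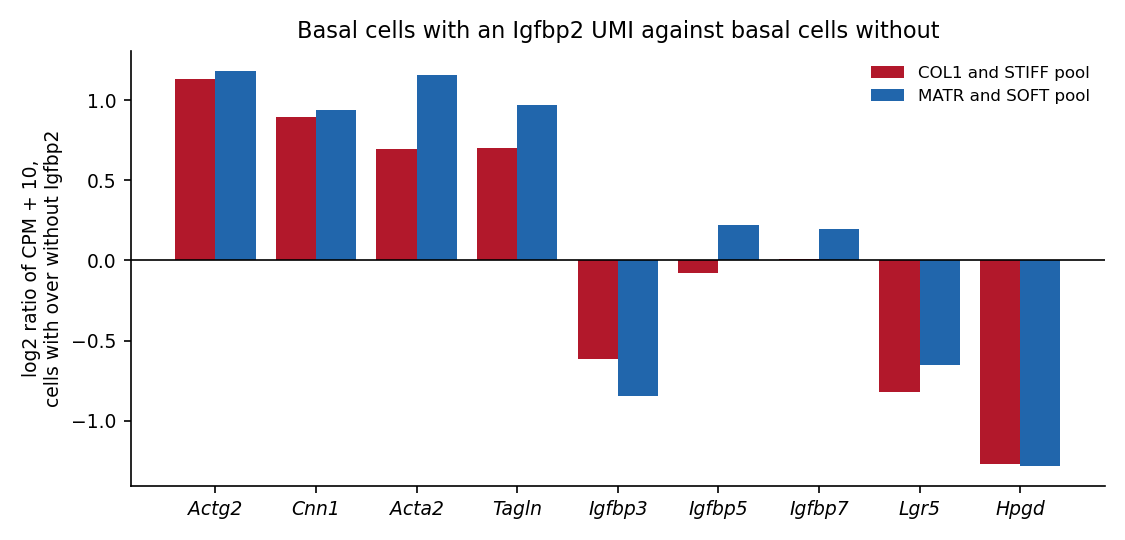
Log2 ratio of CPM + 10 (vertical axis, bars), basal cells with an Igfbp2 UMI over basal cells without one, for 9 genes in the COL1 and STIFF pool and in the MATR and SOFT pool. Actg2, Cnn1, Acta2 and Tagln lie above 0 in both pools, Igfbp3, Lgr5 and Hpgd below 0, and Igfbp5 and Igfbp7 near 0.

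Counted over all singlets, 4 of 8 members (Igfbp2, Igfbp4, Igfbp6, Igfbp7) were at least 1.5-fold higher in COL1 than in STIFF and none was lower, where 4.66% of all genes measured passed in either direction. The members' median log2 ratio was 0.34, beside -0.02 over all genes. With the class shares held at the mean of both conditions the count was again 4, but Igfbp3 was 1.74-fold lower and Igfbp7, with a ratio of 1.38, did not pass. Under the relative tag rule Igfbp4 (1.49) and Igfbp7 (1.44) did not pass, and Igfbp3 and Igfbp5 were lower.

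In MATR over SOFT, Igfbp2 was higher (3.83-fold, 3.11 to 4.73) and Igfbp6 lower (1.56-fold), 2 of 8 members against 6.72% of genes, with a members' median of 0.02 beside -0.02. With class shares held, Igfbp2 was 2.25-fold higher, Igfbp6 did not pass (ratio 0.84), and Igf1 (1.59-fold) and Igfbp4 (1.95-fold) were higher. In STIFF over SOFT, 3 of 7 members measured passed, all higher (Igf1, Igfbp3 and Igfbp5), against 6.44% of genes, and the members' median was 0.26 beside 0.02. With class shares held these 3 were still higher, Igfbp3 by 1.86-fold instead of 3.41-fold, and Igfbp2 was 2.57-fold lower. The trimmed mean of M-values left Igf1 (1.47) and Igfbp5 (1.49) below 1.5-fold, and Igf1 was also below it without the cells of highest doublet score (1.45).

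In COL1 over MATR, 6 of 8 passed against 8.83% of genes, 5 higher and Igfbp2 lower, and the members' median was 0.58 beside 0.02. With class shares held the count fell to 1 of 8, Igfbp2, which was 2.56-fold lower. Without the cells of highest doublet score, without unnamed clusters and under the margin tag rule Igfbp2 did not pass in this comparison over all singlets, with ratios of 0.67 to 0.74.

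The shares of the source classes differed between conditions as well, and not always in the direction of these totals. Igfbp5 over all singlets was 1638 CPM in COL1 and 2082 CPM in STIFF, while its source classes had lower shares in STIFF. Unnamed clusters, which held much of the Igfbp5, were 20.8% of COL1, 25.1% of STIFF, 14.9% of MATR and 15.8% of SOFT singlets. Fibroblasts were 10.4% of COL1, 6.08% of STIFF, 4.50% of MATR and 4.22% of SOFT singlets, and basal cells 13.2% (11.6 to 15), 7.06% (6.08 to 8.14), 6.99% (5.99 to 8.10) and 3.45% (2.68 to 4.36). Under the relative tag rule the basal shares were 13.2%, 15.8%, 8.62% and 9.07%, so those of STIFF and SOFT moved with the tag rule. The basal share of SOFT no longer lay below that of MATR. HR-negative shares were 10.4%, 6.53%, 12.5% and 9.79% in the same order, and 16.2%, 20.1%, 22.5% and 20.1% under the relative tag rule. The levels within classes above do not use these shares.

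Within basal cells, 7 of 8 members passed 1.5-fold in COL1 over STIFF (Igf1, Igf1r, Igfbp2, Igfbp4 and Igfbp6 higher, Igfbp3 and Igfbp5 lower), where 14.3% of genes did. Igf1, with 28 UMIs in COL1 and 23 UMIs in STIFF basal cells, had an interval that included 1 (0.94 to 3.09), and did not pass without the cells of highest doublet score (1.32). Igfbp6 was near the 5 CPM floor and did not reach it under either other tag rule. In MATR over SOFT, 2 of 7 members passed against 20.2% of genes, Igfbp2 and Igfbp5. In STIFF over SOFT, 4 of 7 passed against 21.9% of genes, with Igfbp3 and Igfbp5 higher and Igfbp2 and Igfbp4 lower. Igfbp4 did not pass without the cells of highest doublet score (1.42-fold lower). In COL1 over MATR, 3 of 8 passed against 13.7% of genes, and of these Igf1 and Igfbp6 each lost the call under alternatives while Igfbp2 kept it in all that were run within classes.

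The other classes gave fewer measured members. In fibroblasts 3 of 8 passed in COL1 over STIFF (19.3% of genes), 2 of 8 in MATR over SOFT (20.2%), 4 of 8 in STIFF over SOFT (17.6%) and 1 of 8 in COL1 over MATR (18.5%). In macrophages the counts were 2 of 6 (19.5%), 4 of 5 (20.1%), 4 of 6 (26.8%) and 2 of 6 (17.5%) in the same order of comparisons. In HR-negative cells they were 1 of 4 (9.16%), 1 of 3 (6.72%), 2 of 4 (11.7%) and 1 of 3 (8.22%), and in HR-positive cells 1 of 2 (6.67%), 1 of 3 (6.01%), 2 of 3 (9.23%) and 0 of 2 (6.88%).

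**Figure D5:**
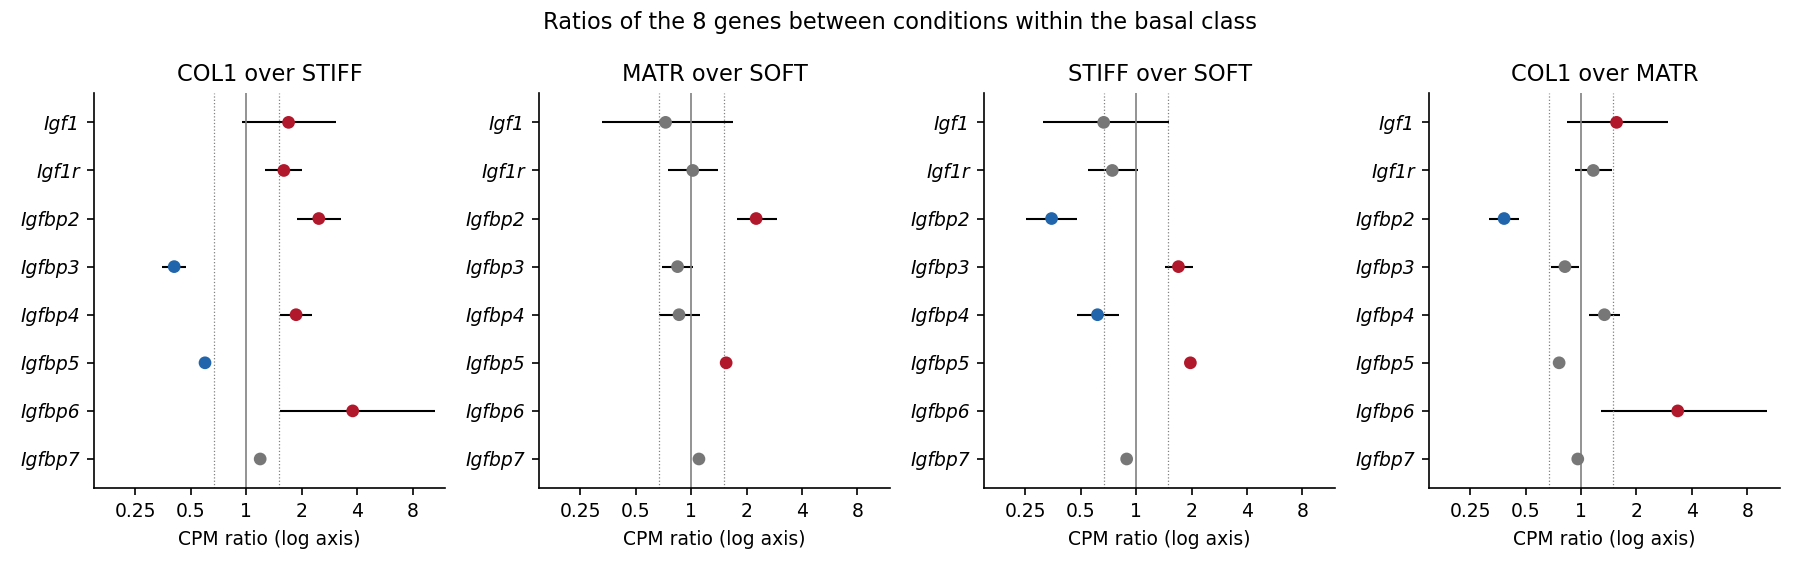
Ratio of CPM in basal cells (log axis) for each member in the 4 comparisons, 1 panel each, with 95% counting intervals, dotted lines at 1.5-fold, red points for at least 1.5-fold higher, blue for at least 1.5-fold lower and grey for neither. Igfbp6 is not drawn where it was below 5 CPM in both conditions. Igfbp2 lies on the opposite side of 1 from Igfbp3 and Igfbp5 in COL1 over STIFF (2.48 against 0.41 and 0.60) and in STIFF over SOFT (0.35 against 1.70 and 1.97).

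Over the 5 classes summed, 14 of 28 pairs of member and class passed in COL1 over STIFF (13.9% of such pairs over all genes), 10 of 26 in MATR over SOFT (14.8%), 16 of 28 in STIFF over SOFT (17.6%) and 7 of 27 in COL1 over MATR (13.1%). Between the pools, without use of the tags, 10 of 26 pairs passed (7.06%), among them basal Igfbp2, which was 3.25-fold lower in the COL1 and STIFF pool than in the MATR and SOFT pool (2.88 to 3.68), and basal Igfbp3, which was 1.85-fold higher (1.72 to 1.99). Macrophages held several of these through transcripts whose main sources are other classes. Macrophage Igfbp5 was 420.5 CPM in COL1, 764.1 CPM in STIFF, 357.3 CPM in MATR and 191.1 CPM in SOFT, and the 12 HR-negative markers summed to 4996 CPM, 7461 CPM, 4361 CPM and 3643 CPM in the same macrophages (Csn2 at 0 in MATR, Lalba at 0 in SOFT). Macrophage Igfbp7 was 262.3 CPM in COL1, 187.4 CPM in STIFF, 118.2 CPM in MATR and 77.8 CPM in SOFT, and the fibroblast list summed to 484.7 CPM, 484.4 CPM, 320.7 CPM and 126.6 CPM (10 genes, Pdgfra at 0 in COL1, Dpt and Fbln1 at 0 in SOFT). Without the cells of highest doublet score it was 26.5 CPM in MATR and 44.7 CPM in SOFT, so the direction between them turned. The part of other cells' RNA in these values was not tested.

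The other genes of the axis were read over all singlets, where 4.66% of all genes passed in COL1 over STIFF, 6.72% in MATR over SOFT, 6.44% in STIFF over SOFT and 8.83% in COL1 over MATR. Of 15 proteases and regulators of binding proteins, 13 were measured, and 9 were higher in COL1 than in MATR, 2 were higher in COL1 than in STIFF, 2 higher and 3 lower in MATR than in SOFT, and 2 higher in STIFF than in SOFT. Within fibroblasts, whose share was larger in COL1 than in MATR, 3 of 13 were higher in COL1 than in MATR and none was lower (18.5% of all genes passed there), and within basal cells 1 was higher and 4 were lower (13.7%). Mmp3, a matrix metalloproteinase of fibroblasts here, was 2.67-fold higher in COL1 (101.4 CPM) than in MATR (37.9 CPM), and 2.07-fold lower in MATR (37.9 CPM) than in SOFT (78.4 CPM). Pappa, the gene of PAPP-A, led in basal cells (97.0 and 70.6 CPM by pool), and Stc2, whose product inhibits PAPP-A, led in HR-positive cells (912.9 and 966.0 CPM). Htra1, a secreted protease of binding proteins, led in fibroblasts (228.5 and 266.3 CPM).

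Of the 4 measured ligand and receptor genes (of 8, Igf1 and Igf1r among them), 1 was higher in STIFF than in SOFT and 1 higher in COL1 than in MATR, with none in the other comparisons. Neither of the 2 other binding protein genes measured (of 6) passed in any comparison. Of the 3 measured IGFBP-related genes (of 5, Igfbp7 among them), 3 were higher in COL1 than in STIFF and 2 higher in COL1 than in MATR, none passed in MATR over SOFT, and 1 was lower in STIFF than in SOFT (Crim1, at 36.8 CPM in STIFF and 75.5 CPM in SOFT).

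Downstream of the receptor, of 11 measured substrates and adaptors (of 12), 1 was higher in STIFF than in SOFT, 3 were higher in COL1 than in MATR, and none passed in the other comparisons. Of 23 genes of the PI3K, FoxO and mTOR branch, 1 was higher in COL1 than in STIFF and 2 were lower in STIFF than in SOFT. Upstream, growth hormone and STAT5 signalling drives Igf1 transcription in liver. Of 9 genes listed for this signalling, 1 was higher and 1 lower in COL1 than in STIFF, and 4 were higher in MATR than in SOFT. In the other comparisons 3 were higher in STIFF than in SOFT and 2 were lower in COL1 than in MATR. Prlr, the prolactin receptor gene, was 1.61-fold lower in COL1 (978.6 CPM) than in STIFF (1571 CPM), and 1.81-fold higher in STIFF (1571 CPM) than in SOFT (867.6 CPM). Stat5a was 2.33-fold higher in MATR (39.4 CPM) than in SOFT (16.9 CPM).

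Across the 20 combinations of 5 classes and 4 conditions, the genes most like each member were named by Pearson's r among 4795 candidates. For Igfbp2 they were Rflna, Scn7a and Gnai1 (0.96, 0.94, 0.94), for Igfbp3 the contractile genes Tagln and Acta2 with Gas1 (0.98 each), for Igfbp5 Lbp, Sox10 and Nqo1 (0.98, 0.98, 0.97), and for Igfbp6 Mfap4, Lrrc15 and Ptgis (0.998, 0.997, 0.997). For Igf1 they were Plxnd1, Myo5a and S100a4 (0.98, 0.98, 0.97), for Igf1r Cd59a, Wtip and Osmr (0.97, 0.96, 0.96), for Igfbp4 Axl, Lrp1 and Rnase4 (0.96 each), and for Igfbp7 Rcn3, Col8a1 and Sparc (0.98 each). The combinations share 2 libraries and their depth, and the values follow mainly the difference between classes.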

How the data were processed

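The authors deposited raw UMI counts for each gene and barcode, and Cell Ranger 5.0.0 made them, per the file headers. Named in the submitters' processing notes are also Seurat 4.2.0 and the mm10 build. Members, gene lists and comparisons were chosen with earlier results of these data known. Kept barcodes had 1000 UMIs or more, 500 genes or more and no more than 15% mitochondrial UMIs. Tags were called with HTODemux (Seurat 5.3.0, R 4.3.3), and the 305 and 277 barcodes with both tags were left out. Scrublet called 0 doublets, so the 342 and 282 cells of highest score were left out as an alternative.

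Both pools were clustered together (scanpy 1.11.5, Python 3.11.15, 2000 variable genes less the IGF genes, 30 principal components, 15 neighbours, Leiden resolution 0.5). A cluster took the class whose marker list had at least 3 members at 20 CPM and 2-fold above the other clusters. It stayed unnamed where a second list reached 0.5 of the leading one, a ratio set after the clusters were seen. Contractile genes shared by myoepithelium, fibroblasts and pericytes were not counted against the fibroblast name, which was also set after the clusters were seen. UMIs were summed per class and condition and divided by their total. Ratios have conditional binomial intervals, levels Poisson intervals and shares Clopper-Pearson intervals, all at 95%. UMIs of 1 library are counted without amplification copies. Log2 ratios use a pseudocount of 10 CPM. All 8 members were named, and beside them the 3 genes most like each and the extreme genes of each list. Classes needed 100 cells in a condition; those of 50 to 99 (SOFT basal cells and fibroblasts) were kept and their numbers given. Alternatives were other tag rules, cell filters, clusterings, scaling (trimmed mean of M-values), folds and floors.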

Additional observations from a re-analysis of the deposited data

Results flagged for a closer look

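Igfbp7 moved in opposite directions in different cell classes under the same comparison, and these differences between classes were not tested. In MATR over SOFT its log2 ratio of CPM was -1.08 in HR-negative luminal cells and -0.74 in HR-positive luminal cells, but 0.55 in macrophages, where it turned to -0.58 without the cells of highest doublet score. In STIFF over SOFT it was -1.40 in HR-positive luminal cells and 1.17 in macrophages. In the tag counts outside the main measurement, an antibody row beyond the 2 used as tags summed to 13315 (COL1 and STIFF pool) and 13477 (MATR and SOFT pool), against 3475654 and 3965116 for the first tag.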

How the results depend on the processing

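Over 62 results for single members and 481 values under alternatives, 404 stayed within the counting interval in the same direction, 70 moved and 7 turned direction. In basal cells the log2 ratio of COL1 over STIFF ranged over the alternatives from 0.87 to 1.26 for Igfbp2 (1.03 as reported), from -1.70 to -1.17 for Igfbp3 (-1.22) and from -1.08 to -0.72 for Igfbp5 (-0.74), and that of MATR over SOFT from 0.86 to 1.14 for Igfbp2 (1.07). The turned log2 ratios were Igfbp3 in HR-negative cells under the margin tag rule, 0.018 in COL1 over STIFF (-0.29 as reported) and -0.0093 in STIFF over SOFT (0.48), Igfbp7 in MATR over SOFT macrophages without cells of high doublet score, -0.58 (0.55), Igfbp3 in STIFF over SOFT fibroblasts under the relative tag rule, -0.44 (0.59), Igfbp6 in COL1 over MATR basal cells under the relative tag rule, -0.024 (0.52), and, with class shares held, Igf1, -0.14 (0.50), and Igfbp4, -0.21 (0.66), in COL1 over MATR over all singlets. The cause was not tested.

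Counts of members past the fold moved as follows. At 2-fold they were 6 of 28 pairs in COL1 over STIFF within classes, 1 member over all singlets and 3 pairs within classes in MATR over SOFT, 1 and 7 in STIFF over SOFT, 3 over all singlets in COL1 over MATR, and 5 of 26 pairs between pools (10 at 1.5-fold). In MATR over SOFT over all singlets they were 4 under the relative tag rule, 1 at a 20 CPM floor and 4 without unnamed clusters (2 as reported). In STIFF over SOFT the trimmed mean of M-values left 1 (3 as reported). In COL1 over MATR they were 4 within classes at 20 CPM and 1 over all singlets with class shares held. That scaling moved the median of all genes in macrophages by -0.12 in COL1 over STIFF, 0.13 in MATR over SOFT and 0.24 in STIFF over SOFT, and in HR-positive cells by 0.13 in COL1 over MATR. The leading class was the same in all 4 conditions for 5 of 8 members, and for 4 with all variable genes or at resolution 1.0. No paired analysis was possible because each condition was 1 culture, and no replicate could be left out. Few UMIs stand behind some calls, such as 28 in COL1 and 23 in STIFF for basal Igf1.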

Other observations

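In the unnamed cluster that held basal and HR-negative markers together, Igfbp5 was 3062 CPM in the COL1 and STIFF pool and 2923 CPM in the MATR and SOFT pool, and Igfbp7 was 1278 and 986.1 CPM.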
